A study of Homo sapiens with 4 samples.

Results

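Messenger RNA of the EGF receptor (ERBB) family was examined in LX-2, an established human line of hepatic stellate cells, after transfection of a miR-6133-5p mimic. The 10 genes were listed by name, with earlier results of these data known: the receptors *EGFR*, *ERBB2* and *ERBB3*, the ligands *HBEGF*, *AREG*, *EREG*, *TGFA*, *NRG1* and *BTC*, and the feedback inhibitor *ERRFI1*. All 10 were found by Ensembl identifier among 63677 genes of the count table, and 7 of them had enough reads to be among the 18252 genes tested. The study asked which genes changed when the mimic was present, and compared 2 libraries of cells given miR-6133-5p with 2 libraries of cells given the negative control mimic, called miControl. Both groups were LX-2 cells that received 20 nM of a mimic and, 24 h later, 5 ng/mL of recombinant human TGF-β1 (rhTGF-β1), and RNA was taken 24 h after that. Cells without rhTGF-β1 and cells without a mimic were not analysed here, so each value describes rhTGF-β1-treated, transfected cells of a single line. Separate cultures are not stated for the 2 libraries of a group, so the p-values measure the spread between these libraries, which may be technical.

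Library totals ran from 51862006 to 93811213 counts, with replicate 2 of miR-6133-5p the deepest. Levels are given as CPM, the count as a share of the TMM-scaled library total on the usual scale, and 1 count was worth 0.0101 to 0.0203 CPM. Both mates of a read pair were counted, at 1.68 to 1.70 counts per uniquely mapped pair, so a count of 2 can be a single RNA fragment. Of 9 stellate and mesenchymal markers, *DES* and *LRAT* had at most 10 counts in every library, while *COL1A1*, a collagen chain, was the highest. The summed level of these 9 markers was 5079 to 5598 CPM with miControl and 3025 to 3363 CPM with miR-6133-5p. *COL1A1* went from 2917 to 1064 CPM and made up most of that difference. *ACTA2* went from 38.2 to 9.91 CPM, *COL1A2* from 57.3 to 26.5 CPM and *TAGLN* from 334 to 159 CPM. Like *COL1A1*, these were called lower by the rule given below, beside 5.54% of all tested genes. *COL3A1* went from 134 to 98.8 CPM and was not called. *VIM* was at 1815 and 1793 CPM and *PDGFRB* at 41.7 and 42.8 CPM, with overlapping groups in both. Among 6 epithelial markers, *EPCAM*, *CDH1*, *ESRP1* and *GRHL2* had at most 10 counts in every library, and the sum, mostly *KRT7*, was 3.70 to 4.59 CPM with miControl and 6.82 to 7.32 CPM with miR-6133-5p. Of 6 hepatocyte markers 5 had at most 10 counts in every library, and the endothelial and leukocyte sums were at most 11.5 CPM. The part of these marker shifts in the ERBB results was not tested, and in bulk RNA fewer cells of a type and less RNA per cell cannot be told apart.

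ERBB receptors are tyrosine kinases of the cell surface that pair when a ligand binds and then signal through RAS and ERK and through PI3K and Akt. EGFR binds EGF, TGF-α, amphiregulin, epiregulin, betacellulin and HB-EGF, neuregulins bind ERBB3 and ERBB4, and ERBB2 has no known soluble ligand and acts as a partner of the others. Most ligands are made as membrane-bound precursors that ADAM proteases cut free, and the signal is ended by ERRFI1 (MIG6), which blocks the EGFR kinase, and by CBL ubiquitin ligases, which send the receptor to lysosomes. In liver, EGFR is known from hepatocyte regeneration and is also carried by stellate cells, where HB-EGF and related ligands act as growth signals.

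The hairpin that gives rise to miR-6133-5p is shown because the mimic of its product is what sets the groups apart. It is the RefSeq entry for *MIR6133*, at chr7:133290881-133290988 on the plus strand of GRCh38.p14, 108 bases, and the table used here does not mark the mature strand in it.
MIR6133: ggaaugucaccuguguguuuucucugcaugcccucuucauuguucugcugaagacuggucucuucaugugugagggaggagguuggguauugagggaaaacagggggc

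The first listed promoter windows of *EGFR*, *HBEGF* and *ERRFI1* are shown next because the receptor and its most abundant ligand fell while the feedback inhibitor did not pass the test. Each is a RefSeq window of 300 bases on GRCh38.p14, from 250 bases before to 50 after the annotated start, read on the strand of the gene, at chr7:55018767-55019066 (plus) for *EGFR*, chr5:140346554-140346853 (minus) for *HBEGF* and chr1:8026260-8026559 (minus) for *ERRFI1*. Capitals mark the GC box GGGCGG on either strand, so it also appears as CCGCCC.
EGFR: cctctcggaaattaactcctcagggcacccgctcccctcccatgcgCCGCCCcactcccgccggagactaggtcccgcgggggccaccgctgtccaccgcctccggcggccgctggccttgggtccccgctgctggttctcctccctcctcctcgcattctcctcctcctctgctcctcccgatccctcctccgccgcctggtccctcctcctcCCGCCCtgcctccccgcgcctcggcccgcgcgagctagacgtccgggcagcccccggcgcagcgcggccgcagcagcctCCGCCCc
HBEGF: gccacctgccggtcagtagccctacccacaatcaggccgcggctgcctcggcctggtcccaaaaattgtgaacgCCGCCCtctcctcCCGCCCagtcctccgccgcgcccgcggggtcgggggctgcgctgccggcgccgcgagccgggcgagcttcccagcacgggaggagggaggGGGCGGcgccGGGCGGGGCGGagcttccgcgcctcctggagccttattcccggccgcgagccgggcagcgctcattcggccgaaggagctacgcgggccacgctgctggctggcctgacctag
ERRFI1: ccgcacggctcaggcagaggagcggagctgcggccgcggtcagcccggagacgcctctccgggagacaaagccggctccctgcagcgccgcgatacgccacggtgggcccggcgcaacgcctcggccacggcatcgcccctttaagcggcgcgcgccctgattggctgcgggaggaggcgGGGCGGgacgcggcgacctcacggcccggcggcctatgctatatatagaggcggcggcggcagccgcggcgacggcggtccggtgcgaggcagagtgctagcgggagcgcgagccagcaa

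These windows were 75.3%, 75% and 74.7% G or C, and held 3, 5 and 1 GC boxes, of which the last 2 of *HBEGF* share a base. A GC box was found in 45% of 35116 RefSeq promoters of the same length. Of 2 windows of *TGFA*, a gene with at most 10 counts in any library, one held 4 and the other 0. No match in these 3 windows was found on either strand for TATAAA (in 11.5% of all promoters) or the AP-1 site TGANTCA (7.71%). There was also none for the CRE TGACGTCA (1.85%), the CArG box bound by SRF (1.29%), the TEAD site GGAATG (14%) or the SMAD palindrome GTCTAGAC (0.202%). TATAAA was searched as that exact string, so the stretch tatatata in the *ERRFI1* window was not counted. Whether that stretch acts as a TATA box was not tested. A second *EGFR* window, at chr7:55109589-55109888 and 42% G or C, differed from the first, with no GC box, 2 TATAAA, 2 AP-1 and 1 TEAD matches. The counts do not tell from which start the *EGFR* reads came. The *ERBB2* window was 60.7% G or C, with no GC box and 1 AP-1 match. A window was listed for 8 of the 10 genes, not for *ERBB3* or *NRG1*.

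With miR-6133-5p, 3 of the 10 genes fell, namely the receptor *EGFR* and the ligands *HBEGF* and *NRG1*. A gene was called when its adjusted p was below 0.01 and its log2 fold change beyond 0.8 in either direction. By that rule 3 of the 7 tested genes were lower and 0 were higher, beside 5.54% lower and 2.9% higher among all 18252 tested genes. In 5 of the 7, the higher miR-6133-5p value was under the lower miControl value, beside 31.3% of all tested genes. The median log2 fold change was -0.33 over the 7 genes and 0.03 over all tested genes. The former is the value of the scarce gene *BTC*, and it was -0.17 with library totals alone, -0.89 without miControl replicate 2 and -0.59 without miR-6133-5p replicate 1. Where *BTC* was filtered out it was -0.64, with at least 10 counts in every library, and -0.62 with thinned counts. For the 3 untested genes no fold change is given.

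**Figure D1:**
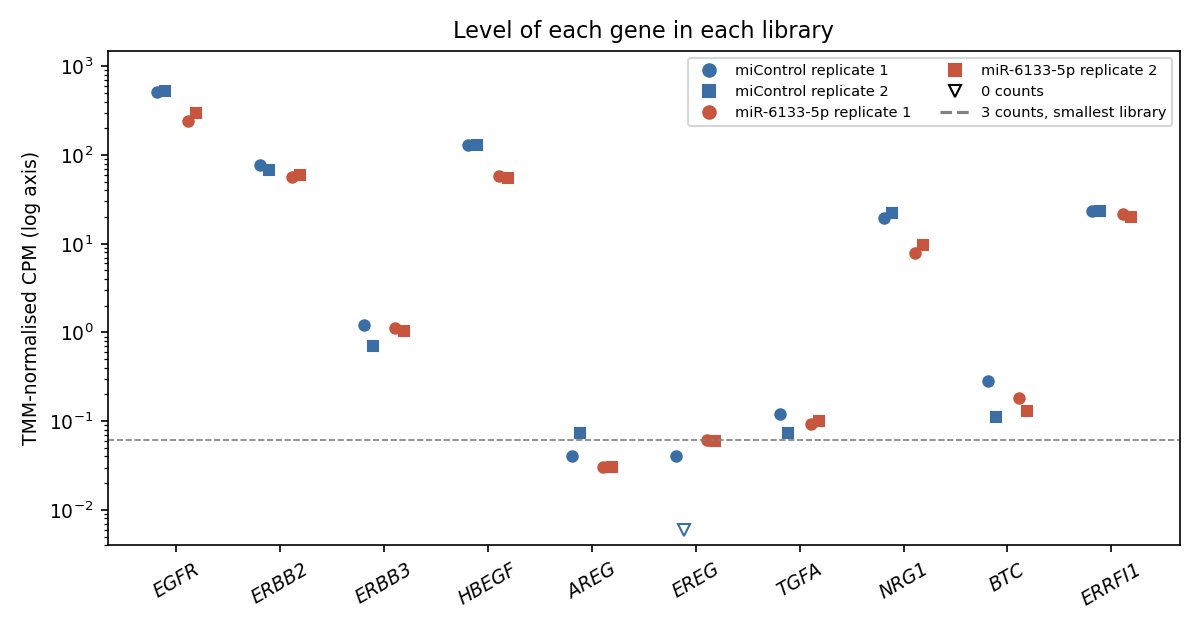
TMM-normalised CPM (vertical log axis) of the 10 genes (horizontal axis) in each library, blue for miControl and red for miR-6133-5p, with circles for replicate 1, squares for replicate 2 and an open triangle for 0 counts. The dashed line is the level of 3 counts in the smallest library, 0.061 CPM. *EGFR*, *HBEGF* and *NRG1* show red points clearly under the blue ones, and *AREG*, *EREG* and *TGFA* lie near the line.

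Among the receptors, *EGFR* (ENSG00000146648, GRCh37 chromosome 7, 55086710 to 55279321, plus strand) had 520.3 and 527.5 CPM in the miControl libraries and 244.9 and 299.3 CPM in the miR-6133-5p libraries. The miControl values were nearly equal, the miR-6133-5p values were further apart, and the groups did not overlap. The log2 fold change was -0.94 (SE 0.116, 95% interval -1.20 to -0.69), with an adjusted p of 4.54e-05 in edgeR's quasi-likelihood test. The level with miR-6133-5p was 51.94% of that with miControl. With glmTreat, which tests whether the change goes beyond 0.8 on the log2 scale, the adjusted p was 0.541, and with library totals in place of TMM the log2 fold change was -0.78, short of the limit. An antisense gene, *EGFR-AS1*, covers 1.17% of the *EGFR* exon bases, and the strand setting of the counting is not given in the sources used here. Its counts were 36 and 34 with miControl and 4 and 40 with miR-6133-5p, far under those of *EGFR*.

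*ERBB2* (ENSG00000141736, GRCh37 chromosome 17, 37844167 to 37886679, plus strand), the receptor without a ligand of its own, had 76.6 and 67.5 CPM with miControl and 56.3 and 59.5 CPM with miR-6133-5p. Its groups did not overlap either, but the distance was small, at a log2 fold change of -0.32 (SE 0.106, 95% interval -0.54 to -0.087). The adjusted p in edgeR's quasi-likelihood test was 0.0383, so *ERBB2* was not called. *MIEN1* and *PGAP3* on the other strand cover 6.93% of its exon bases.

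*ERBB3* (ENSG00000065361, GRCh37 chromosome 12, 56470583 to 56497289, plus strand), a neuregulin receptor whose own kinase is weak, was scarce. It had 59 and 38 counts with miControl and 74 and 102 counts with miR-6133-5p, which is 1.20 and 0.698 CPM against 1.13 and 1.03 CPM. The groups overlapped, and the log2 fold change of 0.19 had a 95% interval from -0.54 to 0.92, which includes 0.

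HB-EGF, encoded by *HBEGF* (ENSG00000113070, GRCh37 chromosome 5, 139712428 to 139726188, minus strand), binds EGFR and ERBB4. *HBEGF* had 130.5 and 131.0 CPM with miControl and 57.4 and 54.9 CPM with miR-6133-5p. Replicates were close in both groups, and the groups lay far apart. The log2 fold change was -1.22 (SE 0.101, 95% interval -1.44 to -1.0), with an adjusted p of 1.62e-06 in edgeR's quasi-likelihood test. *HBEGF* was the only one of the 10 genes also called by glmTreat, with an adjusted p of 0.00497. No other annotated gene shares its exon bases.

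Neuregulin 1, encoded by *NRG1* (ENSG00000157168, GRCh37 chromosome 8, 31496738 to 32713184, plus strand), is a ligand of ERBB3 and ERBB4. *NRG1* had 953 and 1224 counts with miControl and 521 and 951 counts with miR-6133-5p, or 19.4 and 22.5 CPM against 7.97 and 9.59 CPM. Scaled for depth, both miR-6133-5p libraries were far under both miControl libraries. The log2 fold change was -1.25 (SE 0.136, 95% interval -1.54 to -0.96), with an adjusted p of 1.63e-05 in edgeR's quasi-likelihood test and of 0.0207 with glmTreat. Genes on the same strand cover 9.47% of its exon bases. *HBEGF* and *NRG1* thus fell by like amounts, to 42.9% and 42.0% of miControl, and the difference between these 2 falls was not tested.

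The other ligands were at or near the detection limit in both groups. *BTC* (ENSG00000174808, GRCh37 chromosome 4, 75669969 to 75719733), which encodes betacellulin, had 14 and 6 counts with miControl and 12 and 13 with miR-6133-5p. The groups overlapped, and the 95% interval of the log2 fold change, -1.77 to 1.11, was wide around a value of -0.33. *TGFA* (ENSG00000163235, GRCh37 chromosome 2, 70674416 to 70781325), the gene of TGF-α, had 6 and 4 counts with miControl and 6 and 10 with miR-6133-5p. *EREG* (ENSG00000124882, GRCh37 chromosome 4, 75230862 to 75254466), the gene of epiregulin, had 2 and 0 counts with miControl and 4 and 6 with miR-6133-5p. *AREG* (ENSG00000109321, GRCh37 chromosome 4, 75310853 to 75320722), the gene of amphiregulin, had 2 and 4 counts with miControl and 2 and 3 with miR-6133-5p. The level of *AREG* is uncertain, since 1341 of its 1639 windows of 150 bases (81.8%) are also found in its copy *AREGB*, which had 0 counts in every library, and no reads mapped to several places were kept. *AREG*, *EREG* and *BTC* lie on the same stretch of chromosome 4 and were all scarce.

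*ERRFI1* (ENSG00000116285, GRCh37 chromosome 1, 8064464 to 8086369, minus strand), itself induced by EGFR signalling, had 23.35 and 23.30 CPM with miControl and 21.6 and 19.8 CPM with miR-6133-5p. Both miR-6133-5p libraries were lower, by little. The log2 fold change was -0.17 (SE 0.112, 95% interval -0.41 to 0.068), with an adjusted p of 0.273 in edgeR's quasi-likelihood test, so no change was called, and with library totals alone it was -0.01. The level with miR-6133-5p was 88.7% of that with miControl.

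**Figure D2:**
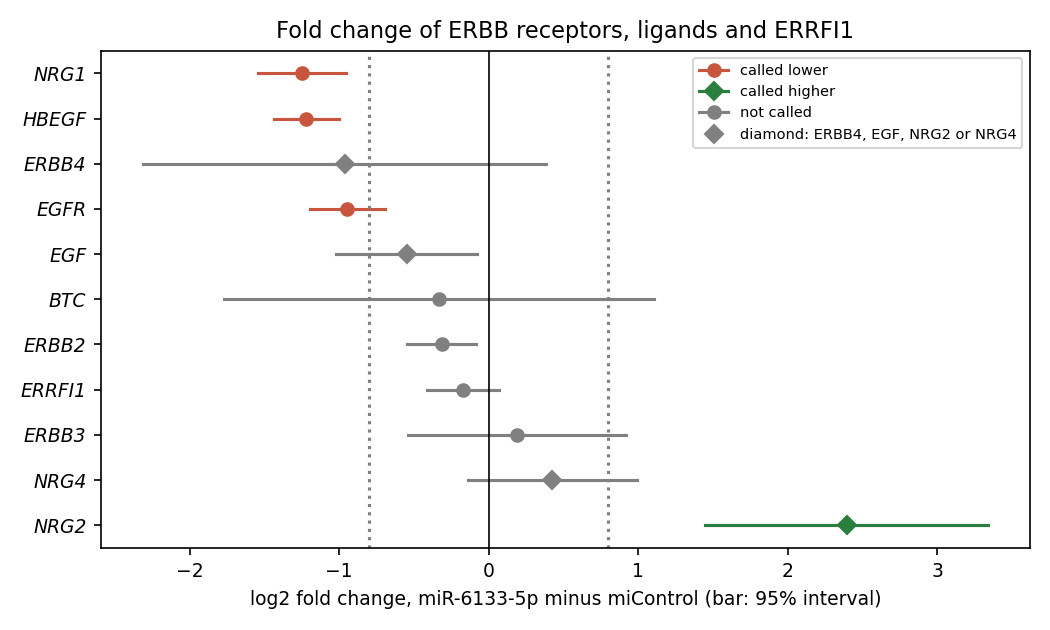
Log2 fold change of miR-6133-5p against miControl (horizontal axis, bars give the 95% interval) of the tested ERBB genes (vertical axis), with circles for the chosen genes and diamonds for *ERBB4*, *EGF*, *NRG2* and *NRG4*. The intervals of *NRG1*, *HBEGF* and *EGFR* lie under 0, that of *NRG2* lies above 0, and those of *BTC*, *ERBB3* and *ERBB4* are wide and include 0.

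Levels were compared between genes only after division by exon length, as CPM per kilobase of the union of annotated exons. The annotation used in counting is not given and may hold other exons than the one used for these lengths. Comparisons between genes, with the shares and ratios below, are therefore approximate. In miControl, *HBEGF* was the most abundant of the 10 genes on this scale at 43.7, followed by *EGFR* at 32.9, *ERBB2* at 6.98, *ERRFI1* at 5.58 and *NRG1* at 0.979 CPM per kb. Neighbours in this order did not overlap between the miControl libraries. *ERBB3* at 0.0810 and *BTC* at 0.0744 CPM per kb overlapped each other, and *AREG* at 0.0348, *TGFA* at 0.0199 and *EREG* at 0.00356 CPM per kb rested on at most 6 counts a library.

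With miR-6133-5p the 5 most abundant genes had the same order of mean levels on this scale, but *HBEGF* and *EGFR* were no longer apart. *HBEGF* had 19.2 and 18.4 CPM per kb and *EGFR* 15.4 and 18.8 CPM per kb in the miR-6133-5p libraries, so their ranges overlapped. *ERBB2* was at 5.61, *ERRFI1* at 4.95 and *NRG1* at 0.411 CPM per kb. Dividing by the longest transcript gave higher levels, 55.4 for *HBEGF*, 52.9 for *EGFR* and 14.6 CPM per kb for *ERBB2* in miControl, since not every annotated exon is in one transcript. With miR-6133-5p this length turned the order of the first pair around, at 24.7 and 30.2 CPM per kb for *EGFR* and 24.3 and 23.3 CPM per kb for *HBEGF*, so which of them ranked first there depended on the length used.

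The makeup of the receptor and ligand messages was taken within each library, where no scaling between libraries enters. Of the summed per-kilobase level of 4 receptors (*EGFR*, *ERBB2*, *ERBB3* and *ERBB4*), *EGFR* made up 81.2% and 83.3% in the miControl libraries and 73.4% and 76.2% in the miR-6133-5p libraries. The share of *ERBB2* was 18.5% and 16.5% with miControl and 26.1% and 23.4% with miR-6133-5p. The 2 groups did not overlap in either share, with *EGFR* the main receptor message in all 4 libraries.

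Of 11 ligands, *HBEGF* made up 95.8% and 95.5% of the summed per-kilobase level with miControl and 91.6% and 92.2% with miR-6133-5p. The share of *NRG1* was 1.99% and 2.29% with miControl and 1.78% and 2.25% with miR-6133-5p, so its groups overlapped. Summed over the 11 ligands the level was 45.6 and 45.9 CPM per kb with miControl and 20.9 and 19.9 CPM per kb with miR-6133-5p. Over the 4 receptors it was 40.2 and 39.7 CPM per kb with miControl and 20.9 and 24.6 CPM per kb with miR-6133-5p. Both sums were set almost wholly by 1 or 2 genes.

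Set against *ERBB2* in the same library, *EGFR* was at 4.40 and 5.06 per kilobase with miControl and at 2.82 and 3.26 with miR-6133-5p. The ratio of *HBEGF* to *ERBB2* was 5.88 and 6.70 with miControl and 3.52 and 3.19 with miR-6133-5p. For *NRG1* to *ERBB2* it was 0.122 and 0.161 with miControl and 0.0683 and 0.0779 with miR-6133-5p. None of these 3 ratios overlapped between the groups. *ERRFI1* to *ERBB2* did overlap, at 0.753 and 0.852 with miControl and 0.947 and 0.822 with miR-6133-5p. The ratio of the feedback inhibitor to its receptor, *ERRFI1* to *EGFR*, was 0.171 and 0.168 with miControl and 0.336 and 0.252 with miR-6133-5p. *HBEGF* to *EGFR* was 1.34 and 1.32 with miControl and 1.25 and 0.978 with miR-6133-5p. With 2 libraries a group no exact permutation test of a ratio can go below p = 0.333, so these ratios are a description.

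**Figure D3:**
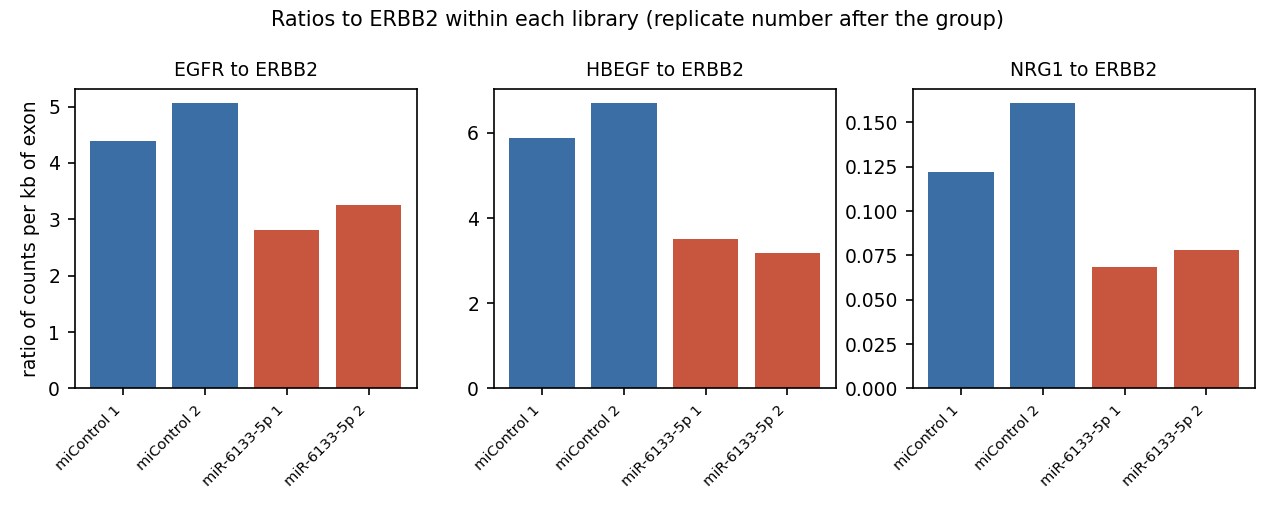
Ratio of *EGFR*, *HBEGF* and *NRG1* to *ERBB2* (vertical axes from 0, counts per kb of exon) in each of the 4 libraries (bars, blue for miControl and red for miR-6133-5p). In each panel both red bars are shorter than both blue bars, for *EGFR* 2.82 and 3.26 against 4.40 and 5.06.

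The remaining receptor and ligands of the family were read from the same fit, where 4 of 6 were tested. Of these, 0 were called lower and 1 higher, beside 5.54% and 2.9% of all tested genes. *NRG2* (ENSG00000158458, GRCh37 chromosome 5, 139226364 to 139422884), another neuregulin, rose from 13 and 8 counts with miControl to 59 and 123 counts with miR-6133-5p, or from 0.264 and 0.147 CPM to 0.902 and 1.24 CPM. Both miR-6133-5p libraries were above both miControl libraries, as in 6055 of all 18252 tested genes, yet the gene stayed scarce in both groups. Its log2 fold change was 2.39 (SE 0.436, 95% interval 1.45 to 3.34), with an adjusted p of 0.00106 in edgeR's quasi-likelihood test and of 0.0199 with glmTreat. With a single library left out the log2 fold change ran from 1.99 to 2.85, and the call was kept in 2 of 4 fits, being lost without either miControl library at an adjusted p of up to 0.0219. The share of *NRG2* among the 11 ligands was 0.126% and 0.0696% with miControl and 0.937% and 1.35% with miR-6133-5p.

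*EGF*, the gene of the ligand that names the family, had 3.09 and 2.52 CPM with miControl and 1.96 and 1.88 CPM with miR-6133-5p, with a log2 fold change of -0.55 and an adjusted p of 0.0757. *NRG4* had 1.87 and 2.68 CPM with miControl and 3.79 and 2.38 CPM with miR-6133-5p, so its groups overlapped, and *FBXO22* on the other strand covers 38.2% of its exon bases. *ERBB4*, the fourth receptor, had 8 and 39 counts with miControl and 16 and 21 counts with miR-6133-5p. *NRG3* had 0 counts in both miControl libraries and 8 and 7 counts with miR-6133-5p, and *EPGN* had 6 counts in 1 miR-6133-5p library and 0 in the other libraries. These genes were thus not called or, for *NRG3* and *EPGN*, not tested.

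Genes that act before and after the receptors were read from 4 further lists. Over all 5 pathway lists 60 of 64 genes were tested, 7 were called lower and 1 higher, beside 5.54% and 2.9% of all tested genes, and the median log2 fold change was -0.13. The counts in the single lists are small, and nothing particular to a list is read from them. Of 9 tested genes of ligand shedding and trafficking, 2 were called lower, both metalloproteases, and 0 higher, with a median of -0.20, or -0.03 with library totals alone. *ADAM19*, which can cut neuregulin precursors, had 761.6 and 722.2 CPM with miControl and 160.4 and 183.7 CPM with miR-6133-5p (log2 fold change -2.11, SE 0.112, adjusted p 5.63e-08). It had the lowest fold change of the 60 tested genes. *ADAM12*, which can cut HB-EGF, had 157.2 and 164.1 CPM with miControl and 87.3 and 94.1 CPM with miR-6133-5p (log2 fold change -0.82, adjusted p 5.51e-05), just past the limit of 0.8. With library totals alone it was -0.66 and so not called, and it was called in 3 of 4 fits with a library left out.

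*ADAM17*, the main shedding enzyme of TGF-α, amphiregulin and HB-EGF, was looked at after its values were seen. It had 29.7 and 29.0 CPM with miControl and 36.98 and 39.16 CPM with miR-6133-5p (log2 fold change 0.38, adjusted p 0.0155), and was not called. *RHBDF1*, which guides ADAM17 to the cell surface and was picked in the same way, was also above in both miR-6133-5p libraries. It had 34.0 and 31.3 CPM with miControl and 40.4 and 40.7 CPM with miR-6133-5p (adjusted p 0.0384). Its relative *RHBDF2*, also looked at after its values were seen, went the other way. *RHBDF2* had 22.9 and 20.2 CPM with miControl and 16.9 and 17.3 CPM with miR-6133-5p (log2 fold change -0.33, adjusted p 0.0477). Neither was called in edgeR's quasi-likelihood test. Of the 9 tested genes of this list, 5 had a log2 fold change below 0 and 4 above 0, beside 8702 and 9550 of all tested genes.

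Among 15 tested genes of receptor inhibition and turnover, 3 were called lower and 0 higher, beside 5.54% and 2.9% of all tested genes. The list median was -0.06, or 0.11 with library totals alone. *CBL*, the ubiquitin ligase of EGFR, had 147.5 and 150.5 CPM with miControl and 54.5 and 73.1 CPM with miR-6133-5p (log2 fold change -1.22, SE 0.131, adjusted p 1.50e-05). Its relative *CBLB* had 72.0 and 79.6 CPM with miControl and 30.2 and 32.4 CPM with miR-6133-5p (log2 fold change -1.28, SE 0.107, adjusted p 1.69e-06). *EPN1*, an endocytic adaptor at clathrin-coated pits, had 149.6 and 125.3 CPM with miControl and 57.0 and 52.9 CPM with miR-6133-5p (log2 fold change -1.32, SE 0.115, adjusted p 2.41e-06). In all 3 the groups were far apart. Their shared role in receptor turnover comes from the choice of the list and is not a result. Of the 15 tested genes, 9 had a log2 fold change below 0 and 6 above 0, beside 8702 and 9550 of all tested genes. With glmTreat *CBL* was not called, at an adjusted p of 0.0241, while *CBLB* and *EPN1* were, at 0.00287 and 0.00247. *LRIG1*, a surface inhibitor of ERBB receptors also picked after its values were seen, was not called, at a log2 fold change of 0.16.

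Of 22 adaptors and RAS-MAPK kinases, 0 were called in either direction by edgeR's quasi-likelihood test, with a median of -0.18, or -0.01 with library totals alone. At an adjusted p below 0.01 alone, 3 were lower and 1 was higher, beside 10.9% and 7.96% of all tested genes. The higher gene, *GAB1*, a docking protein that links EGFR to PI3K, was named after its values were seen, with 11.7 and 11.6 CPM with miControl and 20.3 and 18.9 CPM with miR-6133-5p (log2 fold change 0.75). The lower genes, named after the fact as well, included *NCK2* at -0.55 and *NRAS* at -0.53 on the log2 scale.

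Among 10 genes of ERK transcriptional output, 2 were called lower and 0 higher, beside 5.54% and 2.9% of all tested genes. The list median was -0.13, or 0.03 with library totals alone and -0.23 without miR-6133-5p replicate 1. Both called genes are Sprouty genes, whose products restrain receptor tyrosine kinase signalling and are themselves induced by it. *SPRY2* had 42.7 and 44.3 CPM with miControl and 22.8 and 21.5 CPM with miR-6133-5p (log2 fold change -0.98, SE 0.106, adjusted p 1.62e-05). *SPRY4* had 33.2 and 34.3 CPM with miControl and 15.8 and 16.3 CPM with miR-6133-5p (log2 fold change -1.07, SE 0.109, adjusted p 9.56e-06). With glmTreat neither was called, at an adjusted p of 0.314 for *SPRY2* and 0.0868 for *SPRY4*. With library totals alone *SPRY2* was at -0.81, just past the limit of 0.8. Of the 10 genes of the list, 8 had a log2 fold change below 0 and 2 above 0, *EPHA2* and *DUSP4*. Over all tested genes 8702 were below 0 and 9550 above, and such a split moves with the scaling. *DUSP4*, also named after its values were seen, was at 0.40, with an adjusted p of 0.0175 in edgeR's quasi-likelihood test, and was not called. *EPHA2*, named after its values were seen, had 80.5 and 73.1 CPM with miControl and 117.7 and 132.0 CPM with miR-6133-5p (log2 fold change 0.70, adjusted p 3.14e-04). *DUSP6*, a phosphatase of ERK singled out in the same way, had 17.1 and 16.7 CPM with miControl and 10.9 and 9.73 CPM with miR-6133-5p (log2 fold change -0.71, short of the limit), and a gene on the other strand covers 28.6% of its exon bases.

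**Figure D4:**
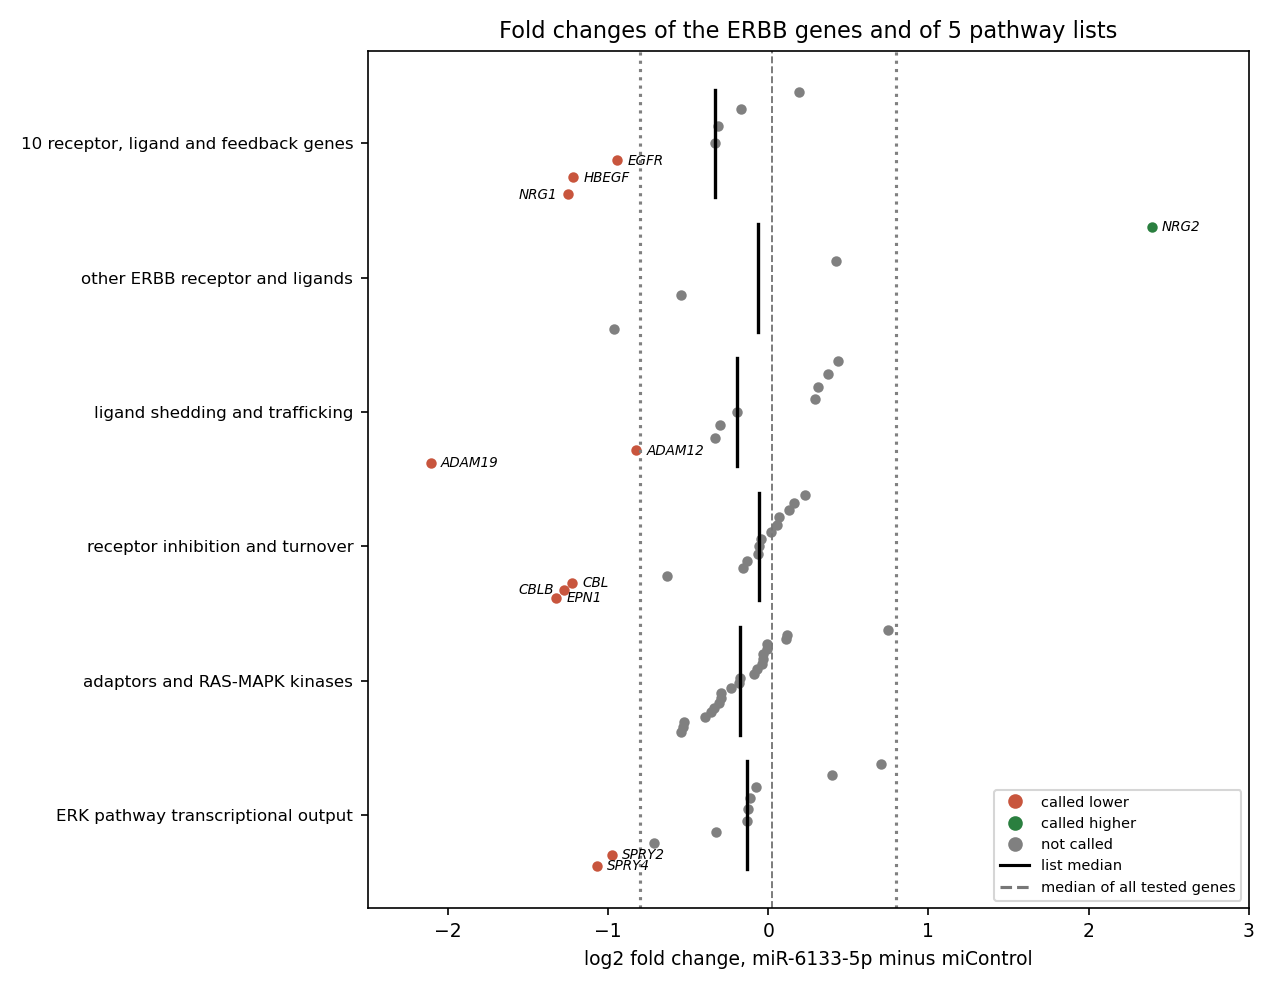
Log2 fold change of miR-6133-5p against miControl (horizontal axis) of every tested gene in the ERBB genes and in 5 pathway lists (rows), with red for genes called lower, green for higher and grey for not called. Short black lines are list medians, the dashed line is the median of all tested genes, 0.03, and dotted lines mark the limits of 0.8 in both directions. Called genes lie far from the median of their list, which was between -0.33 and -0.06 in all 6 rows, although library totals alone turned 3 of these medians above 0.

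The fold changes of the more abundant ERBB genes were recomputed with other scalings, filters and tests and with each library left out. *HBEGF* stayed between -1.27 and -1.20 and *NRG1* between -1.41 and -1.14 when a library was left out, and both were called in 4 of 4 such fits. For *EGFR* the range was -1.11 to -0.82, also called in 4 of 4, with the smaller fall when replicate 1 of miR-6133-5p was left out. *ERBB2* ran from -0.43 to -0.23 and *ERRFI1* from -0.25 to -0.13, and neither was called in any of them.

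**Figure D5:**
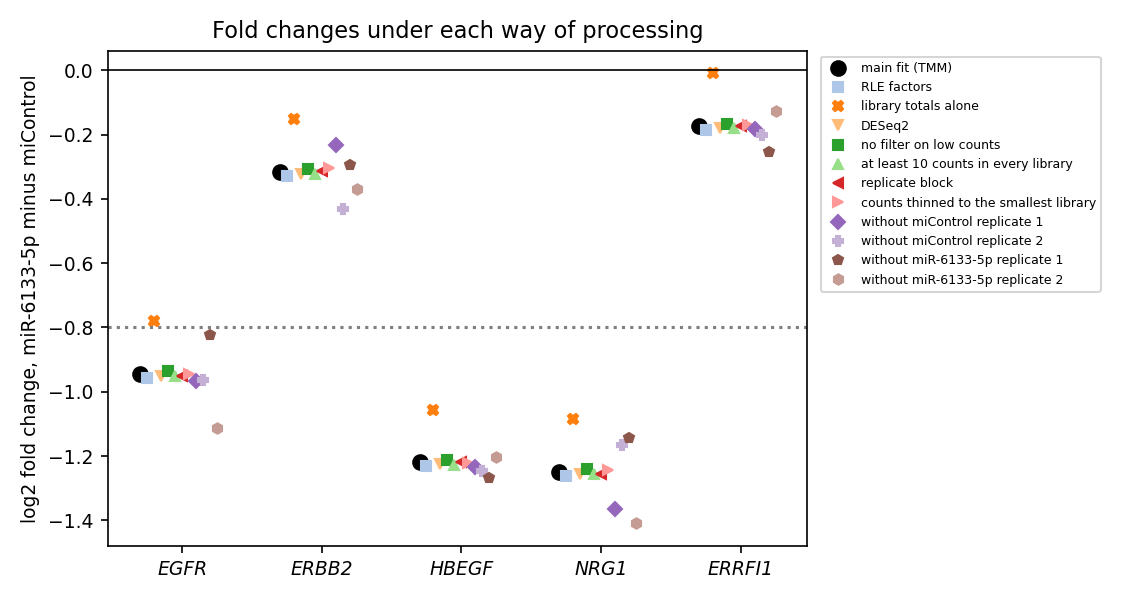
Log2 fold change of miR-6133-5p against miControl (vertical axis) of *EGFR*, *ERBB2*, *HBEGF*, *NRG1* and *ERRFI1* (horizontal axis) in the TMM fit (black) and under each alternative (coloured symbols). The dotted line marks -0.8, and *EGFR* crosses it with library totals alone, at -0.78, while every symbol of *HBEGF* and *NRG1* lies under it.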

How the data were processed

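RNA sequencing libraries of LX-2 cells, 2 with miControl and 2 with miR-6133-5p, were analysed. The authors aligned paired reads of 150 bases to GRCh37 with STAR 2.5.3a, and featureCounts of Subread 1.6.4 is named in the submitters' processing notes. They deposited whole-number counts per Ensembl gene without normalization, in a table and in a file per library that held equal values. The deposited mapping log of the authors' aligner put the fraction of uniquely mapped pairs at 0.9652 to 0.9676. The strand setting and annotation release of the counting are not given in the sources used here.

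Genes were filtered with filterByExpr, scaled by TMM factors and modelled in edgeR 4.0.16 under R 4.3.3 (glmQLFit), with no block for replicate number, and compared by the 2-sided quasi-likelihood F test with Benjamini-Hochberg adjustment over 18252 genes. Standard errors came from the F statistic. Symbols, positions, exon lengths and exon overlaps came from GENCODE v44 lifted to GRCh37, which matched 55665 of 63677 identifiers. Whether the counting used the same exons and held the same overlapping genes is not known. Promoters and the hairpin came from RefSeq tables on GRCh38.p14. The members and lists were chosen with earlier results of these data known. The text names all 10 genes, the other ERBB receptor and ligands, and all 9 stellate and mesenchymal markers. In each other pathway list it names the called genes, at most 6 by size. Any further gene of these lists is marked as chosen after its values were seen. Replicates differed by more than counting noise (chi-square per degree of freedom 13.8 and 52.1). Levels of 3 counts, 0.0303 to 0.061 CPM, cover counting error only. The alternatives were RLE factors, library totals, DESeq2 1.42.0, no filter, at least 10 counts in every library, a replicate block, thinned counts, glmTreat, an adjusted p of 0.05 with no fold limit, and each library left out. The procedure was tested on simulated data. The result for 1 gene of the pathway lists is not reported here. Python 3.11.15, pandas 2.3.3, numpy 2.4.6 and matplotlib 3.10.9 were used.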

Additional observations from a re-analysis of the deposited data

How the results depend on the processing

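The 3 ERBB calls, all lower, were the same in number with RLE factors, DESeq2, both other filters, thinned counts and each library left out. With library totals alone 2 remained, since *EGFR* was at -0.78, and with glmTreat 1 remained, *HBEGF*. Library totals alone moved the median over all tested genes from 0.03 to 0.19 on the log2 scale and the split of all calls from 1011 lower and 529 higher (65.6% lower) to 709 and 977 (42.1% lower), with 3 pathway genes called higher in place of 1. They also turned the list medians of receptor inhibition and turnover to 0.11, of ERK output to 0.03 and of the other ERBB receptor and ligands to 0.10. With glmTreat 326 genes were lower and 80 higher, of the pathway lists 3 and 0, the 3 being *ADAM19*, *CBLB* and *EPN1*. At an adjusted p below 0.05 with no fold limit 2937 genes were lower and 2574 higher, of the pathway lists 17 and 6, and the ERBB count became 4 with *ERBB2*. With at least 10 counts in every library 0 pathway genes were called higher, since *NRG2* was filtered out. With each library left out in turn, all genes called higher ran from 293, without miControl replicate 1, to 587, and pathway genes called higher from 0, without either miControl library, to 1. In these fits the lone library is assumed to vary like the other group. *ERBB3* ran from -0.18, without miControl replicate 2, to 0.62, and *BTC* from -0.89 to 0.48, without miControl replicate 1, so both changed sign, and the cause was not tested. The median of the other ERBB receptor and ligands became 0.57 without miControl replicate 2 and 0.09 without miR-6133-5p replicate 2. The median of ERK output ran from -0.23 to -0.15 with a library left out.

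Replicate numbers pair nothing known in the labels. The deviations of same-numbered libraries from their group means had a correlation of 0.049 between the groups, taken over 18252 genes. With the replicate block 1130 genes were lower and 642 higher, and the ERBB calls were 3 lower and 0 higher. The planned search for seed matches of the mimic was not run, as its mature sequence was not in the tables used here. Depth limits *ERBB3*, *BTC*, *AREG*, *EREG* and *TGFA*, and groups of 2 libraries allow no test for a single outlying library.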
